A study of Sus scrofa with 6 samples.

Results

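Phosphagen genes encode the enzymes that hold the ATP level of a muscle fibre steady while its demand jumps. The set described here was defined by gene name, as CKM, CKMT2, CKB, AK1, AMPD1 and the oxygen-binding MB. It was chosen with earlier results of these data known. Of these 6 names 4 (CKM, CKMT2, AK1 and AMPD1) were matched among the 7661 gene records of the deposited table. CKB and MB are not analysed here, so the values below concern the ATP buffer and not the oxygen store. The records come from RNA sequencing of freshly taken longissimus muscle, the long back muscle, of pigs (Sus scrofa), with 3 libraries from animals with high and 3 from animals with low intramuscular fat, the fat lying between and within muscle fibre bundles. The study gives 3 pigs per group; neither group is described as treated or genetically altered, and the labels used here name no breed, sex, age or pairing.

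In muscle, creatine kinase moves a phosphate between phosphocreatine and ADP, with a cytosolic form near the myofibrils and a mitochondrial form in the intermembrane space that charges creatine with newly made ATP. Adenylate kinase turns a pair of ADP molecules into ATP and AMP, and AMP deaminase removes that AMP as IMP, the first step of the purine nucleotide cycle, so that the adenylate kinase reaction can go on. Fast glycolytic fibres are known to be rich in cytosolic creatine kinase and AMP deaminase, and oxidative fibres in mitochondrial creatine kinase.

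Levels are given as TMM-normalised CPM, that is, counts per 1e6 reads of a library after edgeR's trimmed-mean scaling factor between libraries. Library totals lay between 25371989 and 34813172 reads. The 4 markers found of the skeletal muscle fibre list (ACTA1, NEB, DES and TNNT1, of 7 names looked for) summed to between 33433 and 41116 CPM in the high group and between 34433 and 41186 CPM in the low group. Adipocyte markers (4 records) summed to between 76.5 and 204 CPM in the high and between 43.6 and 55.9 CPM in the low group. Of these 4 records 3 were higher, and 1, AQP7, was lower without overlap (9.39 against 14.8 CPM), as are 13.3% of the table. LIPE, 1 of the 3, overlapped between the groups and gave 90.1 CPM of the sum in high library 3. Fibroblast markers (9 records, all higher, 7 of them without overlap) summed to between 3078 and 4067 CPM against between 1360 and 2782 CPM. Endothelial, erythrocyte and macrophage sums overlapped between the groups, whereas smooth muscle and pericyte markers (7 records) stood at between 569 and 631 CPM in the high and between 416 and 537 CPM in the low group. Of those 7 records 3 were higher (MYH11, RGS5 and ACTA2) and 4 lower, with a median log2 difference of -0.00055. Each of the 3 higher records was without overlap, as are 13.5% of the table in that direction. Mitochondrially encoded genes took between 6.99% and 11.5% of the high and between 8.06% and 12.7% of the low libraries. The part of these differences in the results below was not tested. In whole muscle, fewer fibres and less RNA per fibre cannot be told apart.

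CKM, CKMT2 and AK1 stood at nearly the same mean level in both groups, and AMPD1 was 1.37-fold higher in the high group without passing the test. None of the 4 records passed an adjusted p of 0.05 (edgeR's quasi-likelihood test, Benjamini-Hochberg over all 7661 records), a threshold that 11 records, 0.144% of the table, passed. At an unadjusted p under 0.05 there was 1 of the 4, AMPD1, against 18.7% of the table. AMPD1 lost this unadjusted call in limma-voom (0.0525 before adjustment and 0.276 after), in edgeR with the replicate number as a block (0.0841 before and 0.332 after), and with any library but high library 2 left out (0.0542 to 0.170 before and 0.2499 to 0.508 after). DESeq2, which called 518 records (6.77%), and edgeR's exact test, which called 316 (4.12%), also called 0 of the 4.

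**Figure D1:**
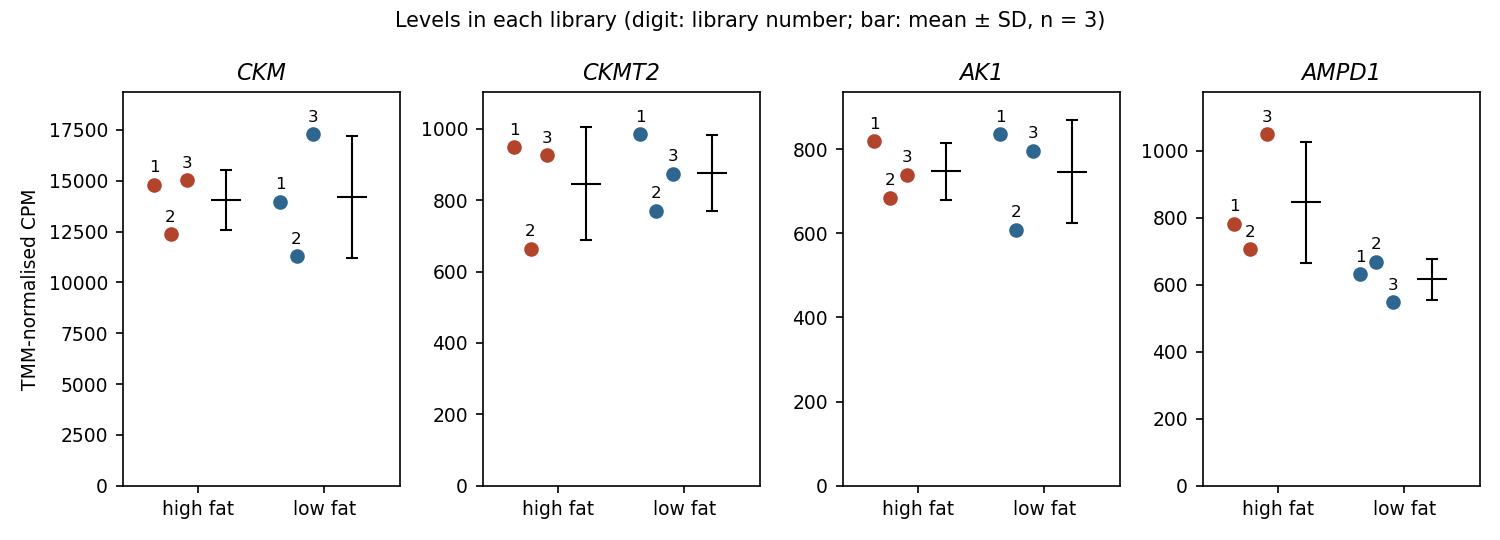
TMM-normalised CPM of the 4 genes in each library (points, with the library number above), with the mean ± SD of each group of 3 as a bar; the axes start at 0 and differ between panels. The groups overlap for CKM, CKMT2 and AK1, whereas the lowest high library for AMPD1 (706 CPM) lies just above the highest low library (669 CPM).

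CKM encodes the cytosolic creatine kinase of muscle, which regenerates ATP beside the myofibrils. Its record (ENSSSCG00000025268) lies on the unplaced scaffold GL896419.1, from 12573 to 20830 on the forward strand, in the coordinates of the deposited table, for which no genome build is stated. Reads of CKM made up 1.42%, 1.28% and 1.49% of high libraries 1 to 3 and 1.41%, 1.21% and 1.62% of low libraries 1 to 3.

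CKM levels were 14808, 12362 and 15022 CPM in high libraries 1 to 3 and 13961, 11294 and 17292 CPM in low libraries 1 to 3. Both the highest and the lowest of the 6 values belonged to the low group, so the high group lay inside the range of the low group. The group means were 14064 ± 1478 and 14182 ± 3005 CPM (SD, n = 3 per group). On the log2 scale the difference, high minus low, was -0.012 (SE 0.24), with an edgeR quasi-likelihood adjusted p of 0.981. Its 95% interval corresponds to a fold between 0.675 and 1.46, so a change of CKM within that range was not excluded with 3 libraries per group. Counting error was small beside this, at most 0.175% of the level in any library.

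CKMT2 encodes the sarcomeric form of mitochondrial creatine kinase (ENSSSCG00000014128; chromosome 2, 91754200 to 91770538, reverse strand). It stood at 948, 664 and 927 CPM in high libraries 1 to 3 and at 985, 770 and 874 CPM in low libraries 1 to 3. High library 2 was the lowest and low library 1 the highest, and low libraries 2 and 3 lay between high library 2 and the other high libraries, so the groups overlapped. The means were 846 ± 158 and 876 ± 108 CPM, a log2 difference of -0.050 (SE 0.19, edgeR quasi-likelihood adjusted p = 0.904), and the 95% interval of the fold ran from 0.713 to 1.31. Low library 1, with the most CKMT2, also had the largest share of mitochondrially encoded reads (12.7%), and high library 2, with the least, had the smallest (6.99%). The order did not hold throughout, since high library 1 combined 948 CPM of CKMT2 with a share of 7.08%.

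AK1 encodes the cytosolic adenylate kinase of muscle (ENSSSCG00000005627; chromosome 1, 302277902 to 302287920, reverse strand). Levels were 818, 684 and 739 CPM in high libraries 1 to 3 and 835, 608 and 796 CPM in low libraries 1 to 3. As with CKM, the low group held both extremes. The means, 747 ± 67.4 and 746 ± 122 CPM, gave a log2 difference of 0.00075 (SE 0.17, edgeR quasi-likelihood adjusted p = 0.999). Of the table, 99.7% of records had a larger difference in size, and the 95% interval of the fold was 0.760 to 1.32.

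AMPD1 encodes the AMP deaminase of skeletal muscle (ENSSSCG00000006754; chromosome 4, 116057655 to 116080925, forward strand). It was measured at 782, 706 and 1049 CPM in high libraries 1 to 3 and at 631, 669 and 547 CPM in low libraries 1 to 3. All 3 high libraries were above all 3 low libraries, as in 13.5% of the table, but the nearest pair, high library 2 and low library 2, stood close together. High library 3 was well above the rest of its group. The means were 846 ± 180 and 616 ± 62.2 CPM.

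The log2 difference of AMPD1 was 0.46 (SE 0.19), with an edgeR quasi-likelihood p of 0.0424 before and 0.251 after adjustment. The 95% interval of the fold, unadjusted, ran from 1.01 to 1.86. Of the table, 16.8% of records had a larger difference in size and 10.3% were higher at an unadjusted p under 0.05. In the authors' deposited table, with the sign turned to high over low, AMPD1 has a log2 fold change of 0.46, a p-value of 0.0481 and a false discovery rate of 0.334. Without high library 3 the log2 difference was 0.27 (edgeR quasi-likelihood adjusted p = 0.508). With each of the other libraries left out it lay between 0.39 and 0.57. High library 3 also had the highest adipocyte marker sum (204 CPM) and, within its group, the largest mitochondrial share (11.5%), while low library 1 combined a share of 12.7% with 631 CPM of AMPD1. Their part in the result was not tested.

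**Figure D2:**
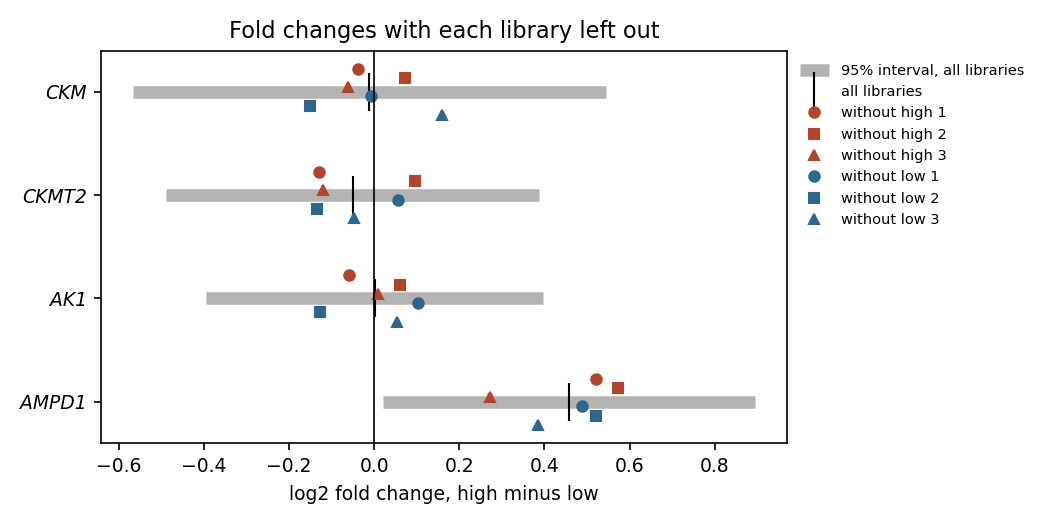
Log2 fold change, high minus low, of each of the 4 genes with all libraries (vertical tick, grey bar for the unadjusted 95% interval) and with each library left out (coloured symbols). AMPD1 stays above 0 throughout, between 0.27 and 0.57, whereas CKM, CKMT2 and AK1 fall on both sides of 0.

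The spread between libraries of 1 group was of ordinary size for these genes. The pooled within-group SD on the log2 scale was 0.24 for CKM, 0.24 for CKMT2, 0.20 for AK1 and 0.23 for AMPD1, against a median of 0.21 over the table and 0.26 over the 194 records with a mean of at least 500 CPM. From the lowest to the highest of the 6 libraries the level differed 1.53-fold for CKM, 1.48-fold for CKMT2, 1.37-fold for AK1 and 1.92-fold for AMPD1.

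The log2 ratio of 2 genes within a library does not depend on the scaling between libraries. It was compared between the groups for the 3 ratios to CKM with an exact two-sided permutation test over the 6 libraries, whose smallest possible p is 0.1. Such ratios of counts were compared across libraries only, since transcript lengths were not used and a ratio of counts is not a ratio of molecules.

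AMPD1 counts per 100 CKM counts were 5.28, 5.71 and 6.98 in high libraries 1 to 3 and 4.52, 5.92 and 3.17 in low libraries 1 to 3. Low library 2 lay above high libraries 1 and 2, so the groups overlapped on this measure. The means were 5.99 ± 0.886 and 4.54 ± 1.38 (SD, n = 3 per group; log2 difference 0.44, exact permutation p = 0.3, 0.9 after adjustment over the 3 ratios). The higher AMPD1 level of the high group was thus not shown to differ from the change of CKM, in a test that could not pass a threshold of 0.05. With 1 library left out the difference lay between 0.20 (without low library 3) and 0.65 (without low library 2).

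CKMT2 gave 6.40, 5.37 and 6.17 counts per 100 CKM counts in high libraries 1 to 3 and 7.06, 6.82 and 5.05 in low libraries 1 to 3. The balance of mitochondrial to cytosolic creatine kinase transcripts therefore overlapped between the groups (log2 difference -0.066, exact permutation p = 0.6, 0.9 adjusted). AK1 gave means of 5.32 ± 0.352 (high) and 5.32 ± 0.691 (low) (log2 difference 0.0064, exact permutation p = 1).

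**Figure D3:**
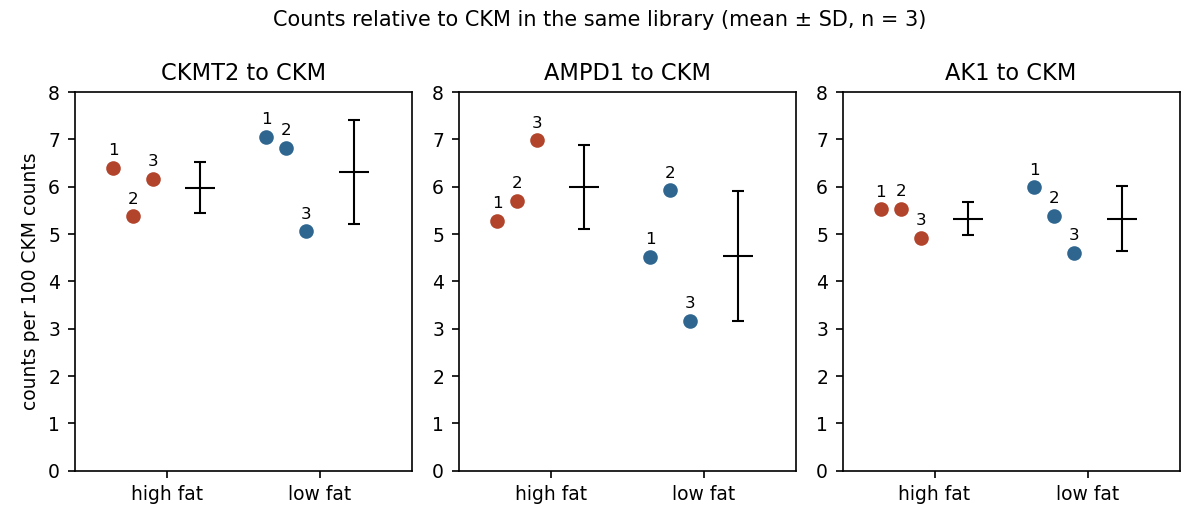
Counts of CKMT2, AMPD1 and AK1 per 100 CKM counts of the same library (points, with the library number above), with the mean ± SD of each group of 3 as a bar. The groups overlap in all 3 panels, and low library 3, which had the most CKM, has the lowest value of each panel. All 3 panels divide by the same CKM count, so they are not independent.

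Across the libraries CKM, CKMT2 and AK1 followed one another more closely than AMPD1 did. The measure was the root mean square difference between log2 profiles over the 6 libraries, each centred on its own mean, for which a small value means a similar profile. It was 0.12 between CKM and AK1, 0.13 between CKMT2 and AK1 and 0.17 between CKM and CKMT2, but between 0.33 and 0.36 from AMPD1 to each of the others. AMPD1 was as far from genes in general. Its median difference from 2105 other named genes was 0.37, against 0.26 for CKM, 0.27 for CKMT2 and 0.24 for AK1. Low library 2 was the lowest for CKM and AK1 and high library 2 the next lowest for both, and these 2 libraries were also the lowest for CKMT2 but in the other order. They carried the largest scaling factors as well (1.07 and 1.03). Before that scaling low library 2 and high library 2 already had the smallest shares of CKM reads (1.21% and 1.28%) and of AK1 reads (0.0653% and 0.0705%). For CKMT2 the smallest shares were those of high library 2 (0.0685%) and low library 3 (0.0820%), below low library 2 (0.0827%).

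Among 2105 other named genes with a mean of at least 50 CPM, the profile nearest to CKM was that of PGM1 (0.058), the phosphoglucomutase that links glycogen to glycolysis. Levels of PGM1 were 4228, 3402 and 3988 CPM in high libraries 1 to 3 and 3657, 3112 and 4360 CPM in low libraries 1 to 3. RNF130 (0.066) and TECR (0.073), a reductase of very long chain fatty acid elongation, came next, against a median of 0.26 over all candidates.

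Nearest to CKMT2 was SDHC (0.052), a membrane anchor subunit of succinate dehydrogenase, followed by CYB5R1 (0.063) and ADSSL1 (0.069). ADSSL1 is the muscle adenylosuccinate synthase, which takes the IMP made by AMPD1 back towards AMP. It stood at 143, 98.8 and 134 CPM in high libraries 1 to 3 and at 154, 113 and 117 CPM in low libraries 1 to 3. Its values were lowest in high library 2 and highest in low library 1, as for CKMT2, a likeness that follows from choosing genes by profile. ADSSL1 did not share the separation of the groups seen in AMPD1.

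AK1 lay nearest to RCN2 (0.041), a calcium-binding protein of the secretory pathway, TMEM111 (0.046) and PRRT3 (0.052). Closest to AMPD1, but less close than these, were G3BP2 (0.090), an RNA-binding protein of stress granules, ORAI1 (0.11), the pore subunit of store-operated calcium entry, and MDM2 (0.12), the ubiquitin ligase of p53. G3BP2 levels were 198, 206 and 267 CPM in high libraries 1 to 3 and 173, 199.998 and 152 CPM in low libraries 1 to 3. High library 3 was the highest for G3BP2, ORAI1 and MDM2 alike, as it was for AMPD1. This likeness follows from choosing the genes by their profile over the same libraries.

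**Figure D4:**
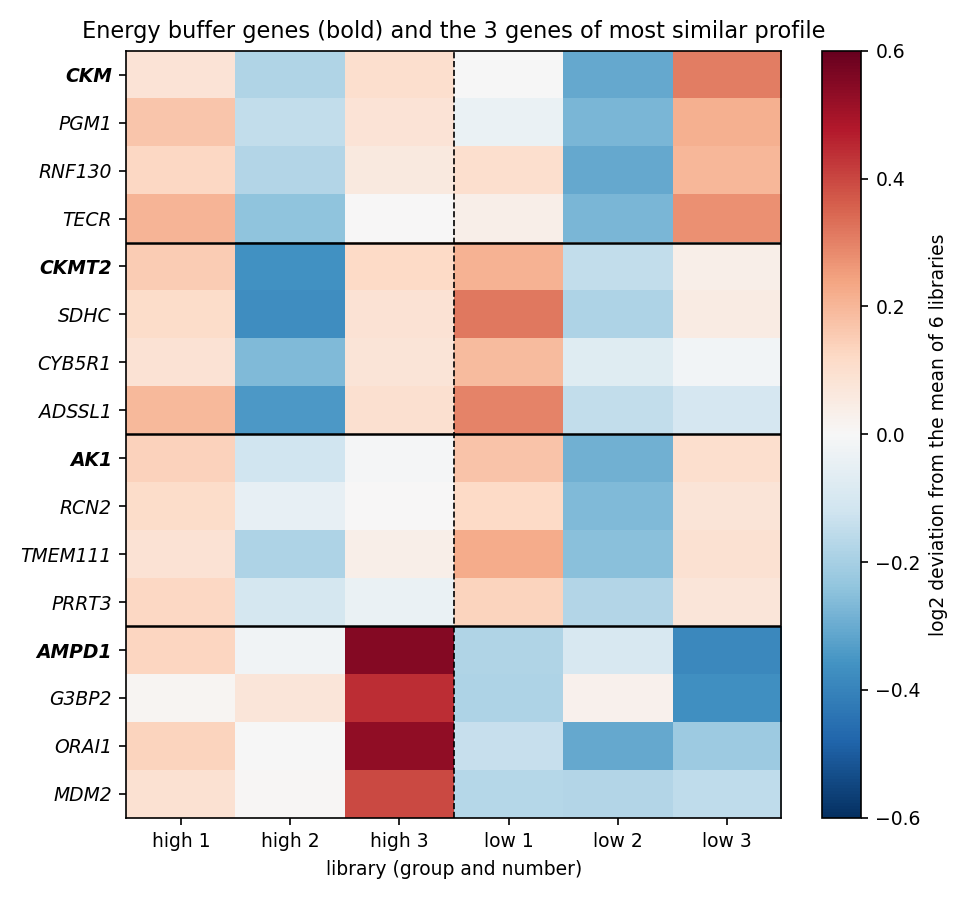
Log2 deviation of each library from the mean of the 6 libraries (colour) for the 4 genes (bold) and, under each, the 3 genes with the most similar profile; the dashed line parts the high from the low libraries. High library 3 stands out in the AMPD1 block, and low library 2 and high library 2 are below the mean in the CKM, CKMT2 and AK1 blocks. Genes were picked by likeness to the profile in bold, so the agreement within a block follows from that choice.

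Genes around this buffer were described by 8 lists of the creatine, adenylate, AMP-sensing, nucleotide exchange, ion pump, oxygen and oxidative regulator pathways, and by 2 lists of fibre type genes. Together the records reported here numbered 73 other than the 4 genes, of which 26 were higher and 47 lower in the high group, with a median log2 difference of -0.14, against 3463 higher and 4198 lower and a median of -0.036 over the table. No record passed the edgeR quasi-likelihood threshold; at an unadjusted p under 0.05, 4 were higher and 7 lower, against 18.7% of the table in either direction. DESeq2 called 6 of the 73, against 6.77% of the table, and the exact test 3, against 4.12%. These counts were near or below the shares of the table.

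Creatine supply had 2 records, both lower in the high group, and neither passed the threshold. SLC6A8, the creatine transporter of the cell membrane, stood at 164, 131 and 115 CPM in high libraries 1 to 3 and at 183, 182 and 282 CPM in low libraries 1 to 3. The groups did not overlap, with low library 3 far above the rest (log2 difference -0.66, SE 0.22, edgeR quasi-likelihood adjusted p = 0.193; -0.41 without low library 3). GAMT, the last enzyme of creatine synthesis, had -0.11 (SE 0.19). Of the other adenylate kinases, AK3, the GTP-using form of the mitochondrial matrix, had -0.14 (SE 0.17, adjusted p = 0.654), and between -0.27 (without high library 3) and -0.016 (without high library 2) with libraries left out.

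Of 11 records of the purine nucleotide cycle and of AMP, IMP and adenosine turnover, 2 were higher and 9 lower (median -0.11), with none past the threshold. AMPD3, the AMP deaminase form of red cells and many other tissues, stood at 9.67 ± 2.56 against 13.2 ± 2.06 CPM (log2 difference -0.45, SE 0.23, edgeR quasi-likelihood adjusted p = 0.325), the sign opposite to that of AMPD1. High libraries 1 and 3 (9.79 and 7.04 CPM) lay below the 10 CPM that a listed record reaches in 3 libraries. AMPD3 was thus listed through the low group, which favours this sign. NT5C2, a cytosolic nucleotidase that removes phosphate from IMP, had 0.38 (SE 0.21), and GMPR2, which turns GMP into IMP, -0.38 (SE 0.16). GART, an enzyme of new purine synthesis, had -0.26 (SE 0.17). Single libraries moved all 4 values, AMPD3 to -0.27 without high library 3, NT5C2 to 0.24 without low library 1, and GMPR2 to -0.23 and GART to -0.13 without low library 2. With the trend of the log2 difference on a gene's genomic span removed, NT5C2 was at 0.21.

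The AMP-activated kinase, which senses the AMP that adenylate kinase makes, had 9 records including its activator STK11 (LKB1), 4 higher and 5 lower (median -0.14), none past the threshold. PRKAA2, the catalytic subunit common in muscle, was at 209, 167 and 207 CPM in high libraries 1 to 3 and at 167, 125 and 138 CPM in low libraries 1 to 3. Low library 1 (167.4 CPM) lay just above high library 2 (166.6 CPM), so the groups overlapped (log2 difference 0.44, SE 0.16, edgeR quasi-likelihood adjusted p = 0.222). The regulatory subunit PRKAB2 had 0.35 (SE 0.17), and STK11 stood at 32.3 ± 0.518 against 41.02 ± 3.40 CPM without overlap (-0.34, SE 0.12, adjusted p = 0.201). PRKAG2, a nucleotide-binding subunit, had -0.63 (SE 0.38), which rested on low library 2 at 150 CPM and was -0.048 without it. PRKAB2 was at 0.23 without low library 3, and STK11 at -0.20 with the span trend removed.

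All 8 records of mitochondrial adenine nucleotide and phosphate exchange were lower in the high group (median -0.24), as were 4198 of the 7661 records of the table. The 8 records cover 6 genes, since SLC25A6 and VDAC3 (-0.17 and -0.046, both with overlap) have 2 records each. Of the 8 records 5 did not overlap between the groups, against 13.3% of the table, and none passed the threshold. These carriers and channels bring ADP and phosphate to the ATP synthase and let ATP out to CKMT2. SLC25A4, the ADP/ATP carrier of muscle, stood at 1094, 997 and 986 CPM in high libraries 1 to 3 and at 1340, 1234 and 1213 CPM in low libraries 1 to 3, without overlap (log2 difference -0.30, SE 0.14, edgeR quasi-likelihood adjusted p = 0.2996). SLC25A6, another ADP/ATP carrier, has 2 records, which can share reads with each other and with SLC25A4. The record ENSSSCG00000012623 had -1.24 (SE 0.25, adjusted p = 0.104) and the record ENSSSCG00000026631 had -0.55 (SE 0.14, adjusted p = 0.138). DESeq2 called both (adjusted p = 6.16e-04 and 0.0308), and edgeR's exact test called the first (0.00111) but not the second (0.123). SLC25A3, the phosphate carrier, had -0.30 (SE 0.18), and -0.17 without high library 2. With the span trend removed SLC25A4 was at -0.15 and SLC25A3 at -0.17.

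Of the ion pumps that spend the buffered ATP, 2 records are reported, 1 higher and 1 lower. ATP2A1, the calcium pump of the sarcoplasmic reticulum in fast fibres, had a log2 difference of 0.15 (SE 0.21) at 6611 ± 1052 against 5941 ± 751 CPM. ATP1B1, a beta subunit of the sodium pump, had -0.45 (SE 0.22) at 219 ± 48.1 against 299.6 ± 59.7 CPM. Neither passed the threshold (edgeR quasi-likelihood adjusted p = 0.703 and 0.308). ATP2A1 was at 0.026 without high library 1, 0.092 without low library 2 and 0.28 without low library 1, and ATP1B1 at -0.29 without high library 3.

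**Figure D5:**
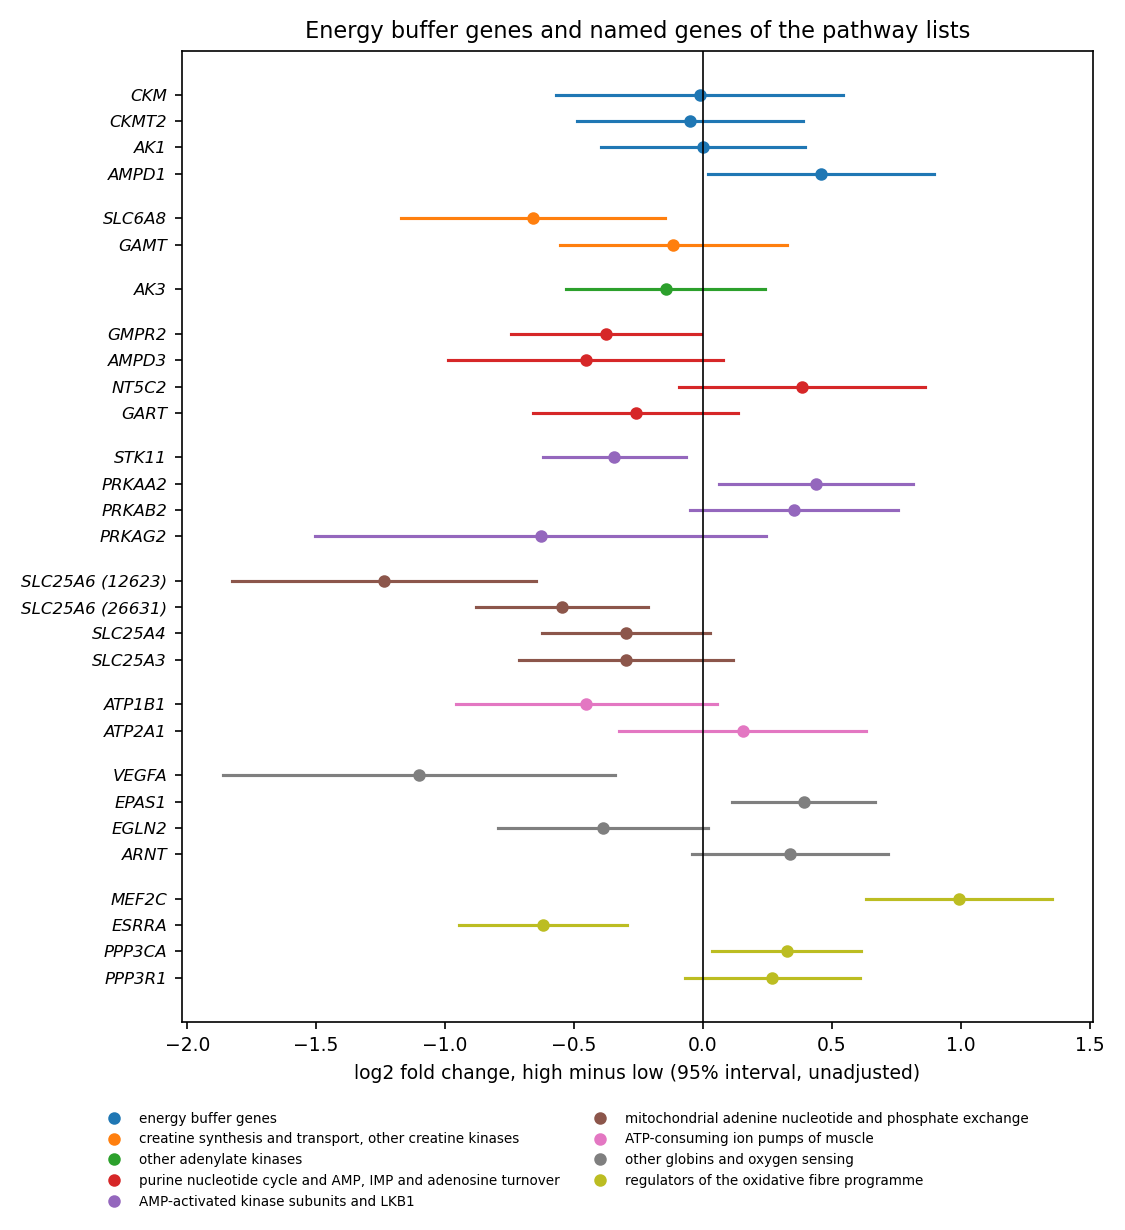
Log2 fold change, high minus low, with its unadjusted 95% interval, for the 4 genes and for the named genes of the 8 pathway lists, coloured by list; the SLC25A6 records carry the last digits of their identifiers. CKM, CKMT2 and AK1 lie at 0, AMPD1 at 0.46, and all 4 carrier records shown lie below 0, none of the records passing the adjusted threshold.

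With MB not analysed, the oxygen side is represented by 13 records of other globins and oxygen sensing, 5 higher and 8 lower (median -0.14), none past the threshold. VEGFA, the vascular growth factor induced by low oxygen, stood at 186, 226 and 111 CPM in high libraries 1 to 3 and at 237, 474 and 410 CPM in low libraries 1 to 3. The groups did not overlap, although low library 1 was near high library 2 (log2 difference -1.10, SE 0.33, edgeR quasi-likelihood adjusted p = 0.162; 0.0157 by edgeR's exact test and 0.0227 by DESeq2). EPAS1, the hypoxia-inducible factor HIF-2 alpha, went the other way at 168 ± 10.5 against 128 ± 5.82 CPM without overlap (0.39, SE 0.12, adjusted p = 0.170; 0.0368 by DESeq2). Its partner ARNT had 0.34 (SE 0.16), and EGLN2, an oxygen-dependent prolyl hydroxylase that marks HIF alpha proteins such as EPAS1 for destruction, -0.39 (SE 0.18). ARNT was at 0.21 without low library 3 and EGLN2 at -0.26 with the span trend removed.

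Regulators of the oxidative fibre programme held 14 records, 9 higher and 5 lower (median 0.13), none past the threshold. MEF2C, a muscle transcription factor known to act on CKM and MB promoters, stood at 192, 195 and 187 CPM in high libraries 1 to 3 and at 98.5, 78.4 and 112 CPM in low libraries 1 to 3. Its groups lay well apart (log2 difference 0.99, SE 0.16, edgeR quasi-likelihood adjusted p = 0.0718; 4.73e-06 by DESeq2 and 9.82e-04 by edgeR's exact test), while CKM itself stood at -0.012. ESRRA, the nuclear receptor ERR alpha of mitochondrial genes, was at 97.9 ± 14.4 against 150.5 ± 3.16 CPM, again without overlap (-0.62, SE 0.14, adjusted p = 0.113; 0.00573 by DESeq2). The calcineurin subunits PPP3CA and PPP3R1 had 0.32 (SE 0.12) and 0.27 (SE 0.15), the first without overlap. With the span trend removed MEF2C was at 0.81 and PPP3CA at 0.023 (edgeR quasi-likelihood adjusted p = 0.130 and 0.943). MEF2C was at 1.01 with the replicate block (edgeR quasi-likelihood adjusted p = 0.164).

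Fibre type genes give the setting for these enzymes. Of 7 slow fibre records 1 was higher and 6 lower (median -0.21), and of 7 fast fibre records 5 were higher and 2 lower (median 0.15), with none past the threshold. Summed over the list, slow fibre genes were at 7674, 8284 and 10617 CPM in high libraries 1 to 3 and at 5802, 14031 and 11811 CPM in low libraries 1 to 3. The low group thus held both the lowest and the highest slow fibre sum. Low library 2, with the highest, had the least CKM and AK1, whereas low library 3, with the next highest, had the most CKM. TNNT1 and TNNC1, the slow troponins T and C, both had -0.39 (SE 0.27 and 0.32), MYH4, a fast myosin heavy chain, 0.22 (SE 0.21) and PVALB, the calcium buffer of fast fibres, 1.22 (SE 0.71), with 73.1 CPM in high library 1 and between 10.04 and 14.6 CPM in the others. Without high library 1 PVALB was at -0.32 and MYH4 at 0.13, and PVALB was at 0.56 in limma-voom and 0.55 with the replicate block. With libraries left out TNNT1 ran from -0.63 (without low library 1) to -0.19 (without low library 2), and TNNC1 from -0.65 (without low library 1) to -0.20 (without low library 3). The part of fibre type in the AMPD1 values was not tested.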

How the data were processed

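The authors deposited a table of 7661 Ensembl gene records with raw read counts, and CPM (counts scaled to the library total) that give back 1 total per library, used here as library size. Every listed record has a deposited CPM of at least 10 in 3 libraries. A record partly below this level in 1 group could be listed through the other group alone. Examples are AMPD3, AQP7 and SLC25A6 ENSSSCG00000012623 (listed through the low group) and MYH11 (listed through the high group). The authors' deposited log2 fold changes (low over high) and p-values were read for the 4 genes only. TopHat2 2.0.4, BWA 0.6.2, Trimmomatic 0.22 and FastQC 0.10.1 are named in the submitters' processing notes. No source used here gives the read counter, its strand setting, the build or the annotation, so related genes may share reads.

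High was compared with low in edgeR 4.0.16 (R 4.3.3): TMM, filterByExpr (all records kept), the quasi-likelihood test in its newer form (legacy off) without covariates, Benjamini-Hochberg adjustment over the table and a threshold of 0.05, all two-sided. The standard error of a log2 fold change is its size over the square root of F. The fit was tested on simulated data. Symbols came from the deposited table (6417 records), an Ensembl name table (401) and RefSeq (131); 712 records had none.

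Named genes were the 4 genes, up to 4 records per list by unadjusted p (2 for the fibre lists) and the 3 nearest profiles per gene. Some genes of the lists are not reported here. The genes, lists and rules were chosen with earlier results of these data known. Alternatives were DESeq2 1.42.0, limma-voom (limma 3.58.1), edgeR's exact test, other scaling factors, a mean CPM of at least 50, no filter, a replicate block, each library left out, and removal of mitochondrial genes, of the 4 genes from scaling or of the genomic span trend. The older quasi-likelihood method was added after seeing the data. No sequences are shown, since none were used here.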

Additional observations from a re-analysis of the deposited data

How the results depend on the processing

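No setting called any of the 4 genes, and AMPD1 kept its direction in all of them, with adjusted p between 0.155 (DESeq2) and 0.508 (without high library 3). Over the table the 11 calls became 518 in DESeq2, 316 in the exact test, 2 with a mean CPM of at least 50, 2 with the replicate block, and 1 (without low library 2) to 30 (without low library 1) with each library left out. Of the pathway records DESeq2 called 6 (both SLC25A6 records, VEGFA, EPAS1, MEF2C, ESRRA) and the exact test 3 (SLC25A6 ENSSSCG00000012623, VEGFA, MEF2C). Differences near 0 changed sign. CKM was 0.030 with a mean CPM of at least 50, 0.0016 in limma-voom, 0.0042 with the replicate block, 0.0013 without mitochondrial genes and 0.12 without the span trend, and -0.15 to 0.16 with libraries left out. CKMT2 was 0.018 and GAMT 0.050 without the span trend, and AK1 -0.019 with upper-quartile factors. With libraries left out CKMT2 ran from -0.14 to 0.097, AK1 from -0.13 to 0.10, GAMT from -0.24 to 0.058, PVALB from -0.32 to 1.65, the AMPD1 to CKM ratio from 0.20 to 0.65, the CKMT2 to CKM ratio from -0.22 to 0.023 and the AK1 to CKM ratio from -0.094 to 0.095. The cause of these changes was not tested. The labels name no pairing by library number. Deviations of same-numbered libraries correlated, across genes, at 0.12, 0.029 and -0.084, and 1 of the 3 high libraries correlated best with its own number. With 3 libraries per group these values could not decide whether samples were paired. With the replicate block AMPD1 had 0.44 (edgeR quasi-likelihood adjusted p = 0.332). The ratios had the same mean differences, which pairing by number cannot change.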
